A study of Homo sapiens with 12 samples.

Results

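The genes encoding the subunits of nuclear RNA polymerases I, II and III were followed in 2 human acute myeloid leukaemia cell lines treated with the kinase inhibitor SGI-7079. Members were the protein-coding rows of the deposited gene table whose name begins with POLR1, POLR2 or POLR3 followed by a letter. The rule found 34 rows, carrying 33 gene names, among the 36041 genes of the table, of which 16146 are protein coding. A further 9 names fit the pattern without being protein coding and were left out. POLR2J3 is listed as 2 overlapping gene models. All 34 members passed the filter on low counts. They comprise 6 subunits of polymerase I (Pol I), 2 shared by Pol I and Pol III, 11 of Pol II (POLR2M, a protein that binds Pol II, is counted here), 5 shared by all 3 enzymes and 10 of Pol III.

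RNA was sequenced in 12 libraries, 3 in each of 4 groups. The groups were MOLM13 treated with SGI-7079 at 10 nM for 24 h, MOLM13 given the solvent DMSO, MV411 (also written MV4-11) treated with SGI-7079 in the same way, and MV411 given DMSO. The series' title and design text describe SGI-7079 as an inhibitor of FLT3 and the cells as FLT3-ITD-mutant, and ask how the compound acts on transcription. Each line stands for a single patient's leukaemia, and nothing in the labels says that the replicates are separate cultures. The p-values therefore rest on the spread of these libraries, which may be technical only.

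Pol I transcribes the large ribosomal RNA precursor, Pol II transcribes messenger RNA, and Pol III transcribes transfer RNA, 5S ribosomal RNA and other small RNAs. Each enzyme is built on a catalytic core of its largest and second-largest subunits, an assembly platform, a stalk and a set of small subunits common to all 3 enzymes. Pol I and Pol III carry additional subunits that resemble the initiation factors TFIIF and TFIIE of Pol II. Their output is tied to growth signals and to the factor MYC, and is high in proliferating leukaemia cells.

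Libraries held 52352252 to 61862017 counts each. Members took 0.217% ± 0.003 of all counts in SGI-7079 libraries and 0.253% ± 0.002 in DMSO libraries of MOLM13 (SD, n = 3 each). In MV411 the shares were 0.204% ± 0.001 with SGI-7079 and 0.237% ± 0.003 with DMSO. Levels are given as CPM, counts scaled to the library's size times its TMM factor, edgeR's scaling factor. In MOLM13 these factors were 0.99 to 1.01 with SGI-7079 and 0.93 to 0.94 with DMSO. In MV411 they were 1.06 to 1.08 with SGI-7079 and 0.98 to 1.00 with DMSO, so CPM differences between groups include this scaling. Myeloid markers, all 11 of which were in the table and none at 0, summed to between 2221 and 2311 CPM in SGI-7079 libraries against 1837 to 1888 in DMSO libraries of MOLM13. Those sums were 3386 to 3489 with SGI-7079 and 3117 to 3260 with DMSO in MV411. The 11 markers did not move alike. By the edgeR test used below for members, 5 passed as higher and 2 as lower in MOLM13. In MV411 the numbers were 5 and 3. Mean FLT3 was 625 CPM with SGI-7079 against 327 with DMSO in MOLM13, and 494 against 385 in MV411. Mean CD68 was 117 against 41.4 CPM in MOLM13, and 174 against 45.1 in MV411. Mean CSF1R was 31.7 against 5.84 CPM in MOLM13, and 150 against 55.4 in MV411. Mean ITGAM was 29.8 against 13.5 CPM in MOLM13, and 12.4 against 5.73 in MV411. Mean MPO was 14.1 against 37.6 CPM in MOLM13, and 4.20 against 9.63 in MV411. Mean CD14 was at most 0.26 CPM in any group. Markers of T cells, B cells, red cells, epithelium and fibroblasts summed to at most 11.7 CPM a list in any library, with HBB and EPCAM at 0 in MOLM13 and CD3D and COL1A2 at 0 in MV411. Not all of these markers were in the table. It held 2 of 5 for T cells, 3 of 4 for B cells, 2 of 4 for red cells, 3 of 4 for epithelium and 4 of 4 for fibroblasts. The share of counts on mitochondrial ribosomal RNA was 0.94% ± 0.02 with SGI-7079 and 0.534% ± 0.015 with DMSO in MOLM13, and 0.837% ± 0.027 with SGI-7079 and 0.406% ± 0.007 with DMSO in MV411. Genes with at least 10 counts averaged 19124 with SGI-7079 and 18145 with DMSO in MOLM13, and 20069 with SGI-7079 and 18907 with DMSO in MV411. The part of these shifts in the members' changes was not tested. CPM are scaled to the library, and in these bulk samples fewer cells of a kind and less RNA per cell cannot be told apart.

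Promoter sequences from RefSeq (GRCh38.p14) were available for 24 of the 33 gene names, and those of 4 subunits are shown because they carry, or lack, the E-box bound by MYC. The 6 letters CACGTG, which read the same on both strands, were searched from 250 bases before to 50 bases after each start. They occur in the promoters of POLR1G (12 bases before the start), POLR3A (35 bases before), POLR3C (196 bases before) and POLR3E (1 base before). That is 16.7% of the member genes with a sequence, against 11.9% of 12706 protein-coding genes of the table and 8.8% of all 27305 genes with a sequence. A gene was counted if any of its promoters held the letters. Counted singly, 7.3% of all 35116 promoters hold them. By class, 3 of 7 Pol III genes and 1 of 5 Pol I genes hold the letters, and 0 of the 2 shared by Pol I and III, 0 of 6 Pol II genes and 0 of the 4 shared by all enzymes. A match describes letters only and is not a binding site. The 250 bases before the start follow, read 5′ to 3′ on the gene's strand, with the E-box in capitals, for POLR1G (chr19:45406394-45406643, plus strand), POLR3A (chr10:78029516-78029765, minus strand), POLR3GL (chr1:145964440-145964689, plus strand) and the first of the promoters listed for POLR1D (chr13:27620493-27620742, plus strand).
POLR1G: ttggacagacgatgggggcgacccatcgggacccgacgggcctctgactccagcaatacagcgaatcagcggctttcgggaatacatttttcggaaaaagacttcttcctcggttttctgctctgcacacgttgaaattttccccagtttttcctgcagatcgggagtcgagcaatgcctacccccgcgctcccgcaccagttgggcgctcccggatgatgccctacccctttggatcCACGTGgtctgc
POLR3A: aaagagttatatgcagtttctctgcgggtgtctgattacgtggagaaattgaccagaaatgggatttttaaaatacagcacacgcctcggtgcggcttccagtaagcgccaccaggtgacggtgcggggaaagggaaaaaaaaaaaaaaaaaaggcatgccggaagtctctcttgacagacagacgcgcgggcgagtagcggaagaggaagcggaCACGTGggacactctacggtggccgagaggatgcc
POLR3GL: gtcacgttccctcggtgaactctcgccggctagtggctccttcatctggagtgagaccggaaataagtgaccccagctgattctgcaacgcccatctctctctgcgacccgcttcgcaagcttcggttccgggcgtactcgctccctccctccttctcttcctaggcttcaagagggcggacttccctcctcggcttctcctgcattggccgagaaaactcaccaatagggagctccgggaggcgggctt
POLR1D: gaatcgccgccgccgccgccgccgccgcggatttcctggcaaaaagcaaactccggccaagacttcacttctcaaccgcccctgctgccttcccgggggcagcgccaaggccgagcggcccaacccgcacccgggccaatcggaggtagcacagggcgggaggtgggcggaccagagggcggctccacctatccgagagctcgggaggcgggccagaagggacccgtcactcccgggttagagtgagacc
POLR1G and POLR3A fell in both lines and POLR3GL and POLR1D rose in both. The 4 were picked for display with these directions known, and do not stand for the rest. Of the 4 members with the letters 3 fell in both lines, POLR3C not passing in MV411, and of the 20 without them 14 fell in both, POLR1A, POLR2B and POLR3K among them.

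Most subunit mRNAs were lower after SGI-7079 in both lines. By edgeR's quasi-likelihood test over 21438 genes, with an adjusted p under 0.05 called a rise or a fall, 26 of 34 members fell and 3 rose in MOLM13. Of all genes tested, 23.6% fell and 23.2% rose in that comparison. Among the 9657 genes whose mean level lies within the members' range of 9.47 to 398.7 CPM, 43.6% fell and 27.4% rose. In MV411, 24 members fell and 3 rose, where 24.3% of all genes fell and 27.2% rose, and 43.6% and 32% did so within the members' range of levels. The median log2 fold change of members was -0.42 in MOLM13, with a range of -0.90 to 0.59, against 0.05 for all genes. In MV411 it was -0.61, with a range of -1.27 to 1.05, against 0.11 for all genes.

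The calls met in most genes: 23 members fell in both lines and 2, POLR1D and POLR3GL, rose in both. Of all genes tested, 18.5% fell in both lines and 17% rose in both, and within the members' range of levels 36% fell and 22.5% rose. No member rose in one line and fell in the other. Every SGI-7079 library was below every DMSO library for 26 members in MOLM13 and 25 in MV411, and above for 2 and 3. Over all genes, SGI-7079 libraries lay wholly below in 27.4% and wholly above in 28.7% in MOLM13, and in 27.4% and 33.8% in MV411. Within the members' range of levels these shares were 47.2% and 30% in MOLM13 and 45.6% and 33.5% in MV411. The plot of effects by enzyme shows the falls in every class.

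**Figure D1:**
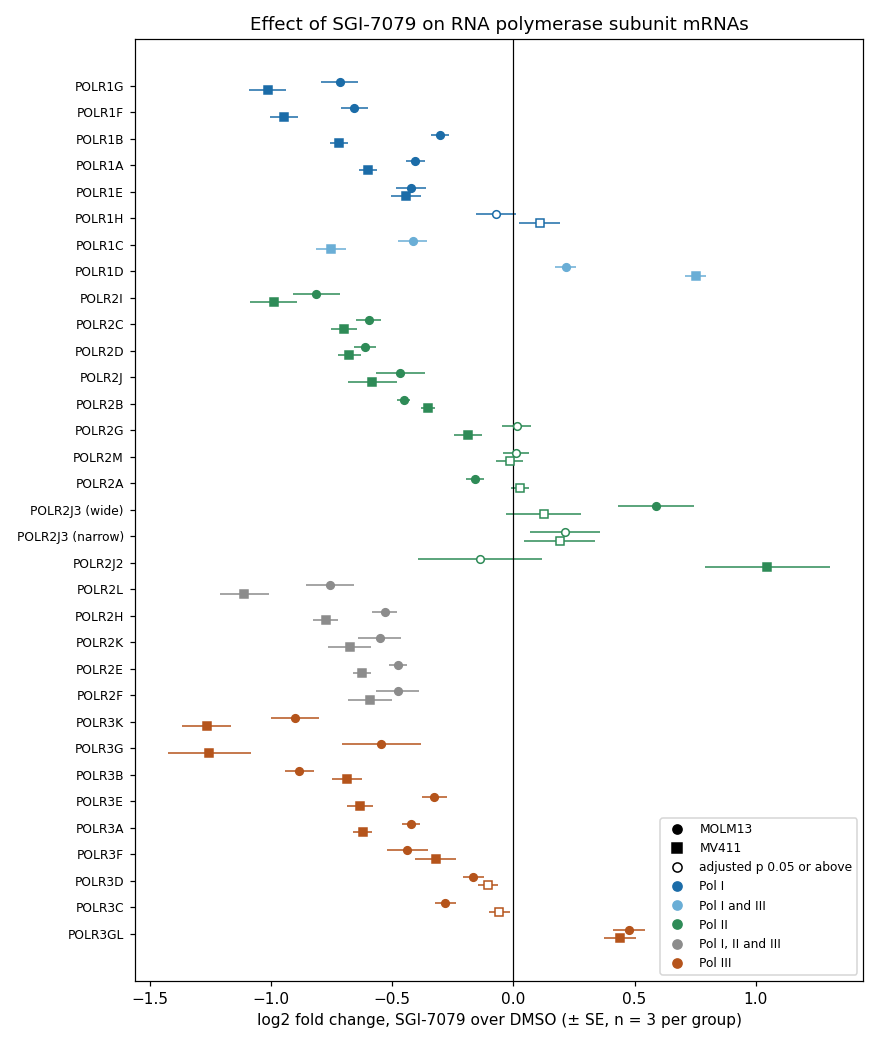
Log2 fold change of 33 members, SGI-7079 over DMSO, with its standard error (n = 3 per group), in MOLM13 (circles) and MV411 (squares), coloured by the enzyme that holds the subunit. Open symbols mark an adjusted p of 0.05 or above, and the wide and narrow POLR2J3 models are ENSG00000168255 and ENSG00000285437. Most points lie left of 0, and POLR1D and POLR3GL lie right of it in both lines.

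Of the 6 Pol I subunits, 5 fell in each line and POLR1H did not pass the test in either. The class median was -0.41 in MOLM13 and -0.66 in MV411, and the summed level was 393 ± 4.4 CPM with SGI-7079 and 520 ± 9.8 CPM with DMSO in MOLM13 (SD, n = 3 each). In MV411 the sum was 259 ± 8.0 CPM with SGI-7079 and 401 ± 10.1 CPM with DMSO. Such class sums are not scaled to length, so genes with many counts weigh most. POLR1A (ENSG00000068654, chr2:86020216-86106155 on hg38), the largest catalytic subunit, measured 136, 139 and 135 CPM in SGI-7079 libraries, against 187, 179 and 176 CPM in DMSO libraries of MOLM13. MV411 libraries held 120, 118 and 113 CPM with SGI-7079, against 174, 173 and 187 CPM with DMSO. The groups did not overlap in either line, and POLR1A fell by 0.40 ± 0.04 on the log2 scale (SE, adjusted p = 1.08e-06) in MOLM13 and by 0.60 ± 0.04 (adjusted p = 1.35e-08) in MV411. POLR1B, the second-largest subunit, measured 116, 111 and 120 CPM with SGI-7079, against 145, 147 and 137 CPM with DMSO in MOLM13. The MV411 levels were 58.7, 60.3 and 58.5 CPM with SGI-7079, against 98.6, 95.7 and 97.8 CPM with DMSO. All treated libraries were the lower ones, with log2 fold changes of -0.30 ± 0.04 (adjusted p = 1.14e-05) in MOLM13 and -0.72 ± 0.04 (adjusted p = 1.65e-09) in MV411.

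The Pol I stalk subunit POLR1F, which contacts the initiation factor RRN3, measured 45.5, 41.5 and 44.3 CPM with SGI-7079, against 66.3, 70.7 and 70.0 CPM with DMSO in MOLM13. Levels in MV411 were 18.0, 16.6 and 18.0 CPM with SGI-7079, against 33.3, 35.6 and 32.4 CPM with DMSO. Its groups stood well apart, at -0.66 ± 0.06 (adjusted p = 3.38e-07) in MOLM13 and -0.95 ± 0.06 (adjusted p = 7.59e-09) in MV411. POLR1E and POLR1G form the TFIIF-like heterodimer of Pol I. POLR1G changed by -0.72 ± 0.07 (adjusted p = 2.82e-06) in MOLM13 and -1.01 ± 0.08 (adjusted p = 7.08e-08) in MV411, with no overlap between groups. Its exons are overlapped over 49.8% of their length by ERCC1 on the opposite strand, and ERCC1 rose by 0.54 ± 0.04 in MOLM13 and 0.31 ± 0.04 in MV411. POLR1E fell by 0.42 ± 0.06 in MOLM13 and by 0.44 ± 0.06 in MV411. POLR1H, the small subunit with RNA cleavage activity, measured 30.3, 33.0 and 33.1 CPM with SGI-7079, against 38.0, 31.9 and 31.2 CPM with DMSO in MOLM13. Its MV411 values were 14.2, 14.7 and 12.8 CPM with SGI-7079, against 13.0, 12.7 and 12.9 CPM with DMSO. The groups overlapped in both lines (-0.07 ± 0.08, adjusted p = 0.523, and 0.11 ± 0.08, adjusted p = 0.317), and 2 of 20 alternatives passed in MV411, both higher.

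POLR1C and POLR1D form the assembly platform that Pol I and Pol III share, and they changed in opposite directions. POLR1C (ENSG00000171453, chr6:43509702-43562391) measured 50.2, 53.5 and 52.3 CPM with SGI-7079, against 69.4, 67.3 and 71.4 CPM with DMSO in MOLM13. In MV411 it measured 24.1, 24.5 and 25.8 CPM with SGI-7079, against 42.6, 37.6 and 45.1 CPM with DMSO. It fell by 0.42 ± 0.06 (adjusted p = 5.98e-05) in MOLM13 and by 0.75 ± 0.06 (adjusted p = 1.76e-07) in MV411. POLR1D (ENSG00000186184, chr13:27620742-27744237) measured 124, 134 and 136 CPM with SGI-7079, against 117, 111 and 112 CPM with DMSO in MOLM13. MV411 libraries held 142, 141 and 130 CPM with SGI-7079, against 82.6, 83.3 and 80.0 CPM with DMSO. Its treated libraries were all above its controls, a rise of 0.22 ± 0.04 (adjusted p = 9.25e-04) in MOLM13 and 0.75 ± 0.04 (adjusted p = 4.73e-09) in MV411. The summed CPM of the pair was 183 ± 7.8 with SGI-7079 and 183 ± 3.9 with DMSO in MOLM13, and 163 ± 5.8 with SGI-7079 and 124 ± 2.5 with DMSO in MV411. CPM are not scaled to length and POLR1D is the longer gene, so equal sums do not mean an equal total of the pair's transcripts.

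The ratio of POLR1D to POLR1C within a library, which does not depend on library scaling, was chosen for this pair after its values were seen. On FPKM, a count scaled to the gene's length and the library's size, the log2 ratio was 0.17 ± 0.04 with SGI-7079 and -0.46 ± 0.05 with DMSO in MOLM13 (SD, n = 3 each). In MV411 it was 1.31 ± 0.12 with SGI-7079 and -0.19 ± 0.16 with DMSO. The groups did not overlap in either line. The two-sided exact permutation test gave p = 0.1 in each line, which is the smallest p that 3 against 3 libraries allow. As POLR1C and POLR1D had each separated the groups, in opposite directions, this p was fixed beforehand and adds no support.

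**Figure D2:**
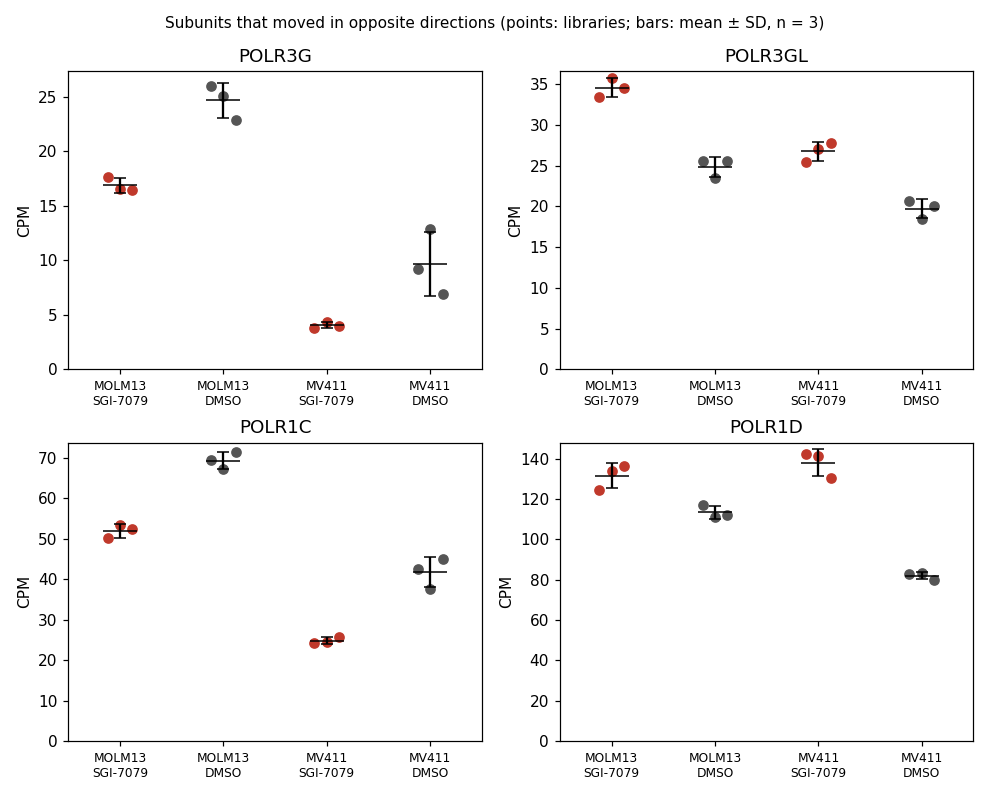
CPM of POLR3G, POLR3GL, POLR1C and POLR1D in each library, with the mean and SD of each group (n = 3) and an axis that starts at 0. Red marks SGI-7079 and grey DMSO. POLR3G and POLR1C are lower with SGI-7079 in both lines, and POLR3GL and POLR1D are higher, with no overlap between the groups of a line.

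Of the 11 Pol II members, 6 fell and 1 rose in each line, with class medians of -0.16 in MOLM13 and -0.19 in MV411. POLR2J2, both POLR2J3 models and POLR2M fell in neither line, and they pull these class medians upward. The rise in each line was in POLR2J2 or a POLR2J3 model. The 6 falls in each line were all among the other Pol II subunits, for which the class medians do not stand. POLR2A (ENSG00000181222, chr17:7484366-7514616), the largest subunit, whose repeat-rich tail is phosphorylated during transcription, measured 360, 368 and 360 CPM with SGI-7079, against 409, 402 and 403 CPM with DMSO in MOLM13. The MV411 levels were 430, 400 and 422 CPM with SGI-7079, against 404, 393 and 433 CPM with DMSO. POLR2A fell by 0.16 ± 0.04 (adjusted p = 0.00296) in MOLM13, where the groups did not overlap, and measured 0.03 ± 0.04 (adjusted p = 0.588) in MV411, where they did. The MOLM13 call was lost with upper-quartile scaling and with limma on FPKM, which put the change as near 0 as -0.06. In MV411 the alternatives ran between -0.07 and 0.14, and 3 of 20 passed as higher. POLR2B, the second-largest subunit, measured 178, 183 and 186 CPM with SGI-7079, against 253, 246 and 249 CPM with DMSO in MOLM13. Levels in MV411 were 174, 174 and 176 CPM with SGI-7079, against 228, 221 and 219 CPM with DMSO. POLR2B stood apart from its controls in every library, at -0.45 ± 0.03 (adjusted p = 1.59e-08) in MOLM13 and -0.35 ± 0.03 (adjusted p = 1.23e-07) in MV411.

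The Pol II assembly platform is formed by POLR2C and POLR2J, and both genes fell. POLR2C measured 50.6, 49.6 and 51.6 CPM with SGI-7079, against 79.2, 72.5 and 77.9 CPM with DMSO in MOLM13. In MV411 the POLR2C level was 44.8, 45.8 and 40.1 CPM with SGI-7079, against 72.0, 67.8 and 72.8 CPM with DMSO. Its groups stood apart in both lines, at -0.60 ± 0.05 (adjusted p = 5.84e-07) in MOLM13 and -0.70 ± 0.05 (adjusted p = 8.27e-08) in MV411. POLR2J changed by -0.47 ± 0.10 in MOLM13 and -0.58 ± 0.10 in MV411. POLR2D and POLR2G form the Pol II stalk. POLR2D measured 50.1, 54.5 and 54.3 CPM with SGI-7079, against 81.4, 81.2 and 80.3 CPM with DMSO in MOLM13. Its MV411 values were 46.0, 43.3 and 43.6 CPM with SGI-7079, against 72.1, 73.4 and 66.7 CPM with DMSO. Its fall was 0.61 ± 0.05 (adjusted p = 1.15e-07) in MOLM13 and 0.68 ± 0.05 (adjusted p = 2.84e-08) in MV411. POLR2G measured 37.4, 40.0 and 38.1 CPM with SGI-7079, against 40.8, 36.0 and 37.5 CPM with DMSO in MOLM13. In MV411 it measured 48.8, 50.2 and 48.4 CPM with SGI-7079, against 54.7, 52.7 and 60.2 CPM with DMSO. Its groups overlapped in MOLM13 (0.01 ± 0.06, adjusted p = 0.885) and stood apart in MV411 (-0.19 ± 0.06, adjusted p = 0.0161). The MV411 call of POLR2G was lost without DMSO replicate 3 (-0.13), without SGI-7079 replicate 3 (-0.18), with upper-quartile scaling (-0.09) and with limma on FPKM (-0.07 and -0.08).

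POLR2I, a small subunit involved in accuracy and RNA cleavage, measured 13.6, 10.5 and 13.1 CPM with SGI-7079, against 21.1, 21.5 and 22.9 CPM with DMSO in MOLM13. MV411 libraries held 8.80, 8.90 and 9.07 CPM with SGI-7079, against 17.8, 18.3 and 17.0 CPM with DMSO. It had the largest fall among Pol II members, at -0.81 ± 0.10 in MOLM13 and -0.99 ± 0.10 in MV411. TBCB overlaps 19.1% of its exons on the opposite strand and changed by -0.26 ± 0.06 in MOLM13 and -0.59 ± 0.06 in MV411. ENSG00000279504, also on the opposite strand, overlaps 69.0% of them and measured -0.14 ± 0.48 (adjusted p = 0.848) in MOLM13 and -1.46 ± 0.50 (adjusted p = 0.0266) in MV411. POLR2M, which modulates initiation and elongation by Pol II, did not pass the test in either line (0.01 ± 0.06 and -0.02 ± 0.06).

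POLR2J2 and POLR2J3 are near-identical copies of POLR2J on chromosome 7, so the split of reads among them is uncertain. POLR2J2 measured 6.31, 13.5 and 13.9 CPM in SGI-7079 libraries of MV411, against 5.65, 4.69 and 5.93 CPM in its DMSO libraries, a rise of 1.05 ± 0.26 (adjusted p = 0.00382). Replicate 1 of the treated group lay close to the controls. In MOLM13 the groups overlapped, at 11.7, 9.24 and 9.35 CPM with SGI-7079, against 8.33, 13.03 and 11.975 CPM with DMSO. ENSG00000267645 shares 21.1% of the POLR2J2 exon bases on the same strand and measured 4.74 ± 1.53 (adjusted p = 0.021) in MOLM13 and -1.34 ± 1.27 (adjusted p = 0.415) in MV411. The wide POLR2J3 model shares 42.3% of its exon bases with UPK3BL2 and 36.8% with the narrow POLR2J3 model, all on its own strand. It measured 50.8, 80.9 and 78.4 CPM with SGI-7079, against 54.7, 42.6 and 42.3 CPM with DMSO in MOLM13, a rise of 0.59 ± 0.16 (adjusted p = 0.00681) in which replicate 1 of each group overlapped the other. The narrow model passed the test in neither line (0.21 ± 0.14 and 0.19 ± 0.15).

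All 5 subunits common to the 3 enzymes fell in both lines, with class medians of -0.53 in MOLM13 and -0.68 in MV411. Their summed level was 247 ± 9.5 CPM with SGI-7079 and 352 ± 5.5 CPM with DMSO in MOLM13, and 257 ± 5.0 CPM with SGI-7079 and 408 ± 12.4 CPM with DMSO in MV411. POLR2E, which lies in the jaw that holds incoming DNA, measured 147, 141 and 140 CPM with SGI-7079, against 204, 195 and 194 CPM with DMSO in MOLM13. The MV411 levels were 182, 177 and 179 CPM with SGI-7079, against 292, 270 and 268 CPM with DMSO. Its groups were far apart, at -0.47 ± 0.04 (adjusted p = 1.87e-07) in MOLM13 and -0.62 ± 0.04 (adjusted p = 7.08e-09) in MV411. POLR2H measured 38.9, 35.5 and 38.9 CPM with SGI-7079, against 52.9, 53.8 and 56.9 CPM with DMSO in MOLM13. Levels in MV411 were 31.9, 33.6 and 32.0 CPM with SGI-7079, against 54.8, 54.0 and 58.1 CPM with DMSO. It fell by 0.53 ± 0.05 (adjusted p = 1.38e-06) in MOLM13 and by 0.77 ± 0.05 (adjusted p = 2.13e-08) in MV411. POLR2L fell furthest of the 5, by 0.76 ± 0.10 in MOLM13 and by 1.11 ± 0.10 in MV411, with 22.8% of its exons overlapped on the opposite strand by CD151, which changed by -0.62 ± 0.06 in MOLM13 and -0.91 ± 0.06 in MV411. POLR2F changed by -0.48 ± 0.09 in MOLM13 and -0.59 ± 0.09 in MV411, and POLR2K by -0.55 ± 0.09 in MOLM13 and -0.68 ± 0.09 in MV411.

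Of the 10 Pol III subunits, 9 fell and 1 rose in MOLM13 and 7 fell and 1 rose in MV411, with class medians of -0.37 and -0.63. POLR3A (ENSG00000148606, chr10:77953148-78029522), the largest subunit, whose promoter is printed above, measured 74.2, 75.3 and 77.7 CPM with SGI-7079, against 105, 97.4 and 102 CPM with DMSO in MOLM13. Its MV411 values were 46.0, 45.6 and 43.6 CPM with SGI-7079, against 70.5, 67.6 and 70.0 CPM with DMSO. No treated library reached a control, and POLR3A fell by 0.42 ± 0.04 (adjusted p = 7.04e-07) in MOLM13 and by 0.62 ± 0.04 (adjusted p = 1.11e-08) in MV411. POLR3B, the second-largest subunit, measured 36.1, 32.4 and 35.5 CPM with SGI-7079, against 62.2, 64.0 and 65.8 CPM with DMSO in MOLM13. In MV411 it measured 16.9, 18.7 and 19.0 CPM with SGI-7079, against 29.6, 28.1 and 30.2 CPM with DMSO. Its fall was 0.88 ± 0.06 (adjusted p = 4.24e-08) in MOLM13 and 0.69 ± 0.06 (adjusted p = 4.3e-07) in MV411. POLR3K, the small subunit needed for RNA cleavage and termination, measured 15.6, 15.2 and 19.5 CPM with SGI-7079, against 31.1, 29.4 and 33.4 CPM with DMSO in MOLM13. MV411 libraries held 8.997, 9.58 and 8.08 CPM with SGI-7079, against 21.3, 21.1 and 21.8 CPM with DMSO. POLR3K had the lowest fold change of all members in both lines, at -0.90 ± 0.10 (adjusted p = 4.44e-06) in MOLM13 and -1.27 ± 0.10 (adjusted p = 1.36e-07) in MV411.

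POLR3D and POLR3E form the TFIIF-like pair of Pol III. POLR3E fell by 0.33 ± 0.05 in MOLM13 and by 0.63 ± 0.05 in MV411. POLR3D fell by 0.17 ± 0.04 (adjusted p = 0.00536) in MOLM13, a call lost with upper-quartile scaling and with limma on FPKM (as near 0 as -0.06), and measured -0.11 ± 0.04 (adjusted p = 0.0524) in MV411.

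The TFIIE-like module that positions Pol III at its promoters holds POLR3C, POLR3F and either POLR3G or POLR3GL. POLR3G is known to be abundant in stem cells and tumours, and POLR3GL in differentiated tissues. POLR3G (ENSG00000113356, chr5:90471748-90514553) measured 17.7, 16.6 and 16.4 CPM with SGI-7079, against 26.0, 25.1 and 22.9 CPM with DMSO in MOLM13. The MV411 levels were 3.80, 4.36 and 3.98 CPM with SGI-7079, against 9.20, 12.8 and 6.95 CPM with DMSO. Every treated library was below its controls, and the DMSO libraries of MV411 were widely spread. POLR3G fell by 0.55 ± 0.16 (adjusted p = 0.014) in MOLM13 and by 1.25 ± 0.17 (adjusted p = 2.96e-05) in MV411. Without MOLM13 DMSO replicate 1 the MOLM13 value was -0.50 with an adjusted p of 0.0538. POLR3GL (ENSG00000121851, chr1:145964690-145978848) measured 33.4, 35.8 and 34.5 CPM with SGI-7079, against 25.5, 23.5 and 25.6 CPM with DMSO in MOLM13. Levels in MV411 were 25.4, 27.1 and 27.8 CPM with SGI-7079, against 20.6, 18.4 and 20.1 CPM with DMSO. Its treated libraries were all above its controls, a rise of 0.48 ± 0.07 (adjusted p = 3.81e-05) in MOLM13 and 0.44 ± 0.07 (adjusted p = 6.67e-05) in MV411. ENSG00000280778 overlaps 21.1% of the POLR3GL exons on the same strand, with a mean of 4.4 counts a library.

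The balance of the alternative subunits' mRNAs moved with treatment in both lines. The log2 ratio of POLR3G to POLR3GL, on FPKM within each library, was -2.07, -2.27 and -2.22 with SGI-7079, against -1.12, -1.05 and -1.31 with DMSO in MOLM13. In MV411 it was -3.91, -3.79 and -3.96 with SGI-7079, against -2.32, -1.68 and -2.69 with DMSO. In linear terms POLR3G stood at 0.22 of POLR3GL with SGI-7079 and 0.446 with DMSO in MOLM13, and at 0.068 with SGI-7079 and 0.213 with DMSO in MV411. The mean log2 ratio differed by -1.02 in MOLM13 and -1.66 in MV411, with p = 0.1 in each by the two-sided exact permutation test, again the smallest that test can give. This p too was fixed beforehand and adds no support, as POLR3G and POLR3GL had each separated the groups, in opposite directions. POLR3F, the partner of both, fell by 0.44 ± 0.08 in MOLM13 and by 0.32 ± 0.08 in MV411. POLR3C fell by 0.28 ± 0.04 (adjusted p = 1.03e-04) in MOLM13 and measured -0.06 ± 0.04 (adjusted p = 0.294) in MV411, where its groups overlapped. In MV411, POLR3C passed as lower in 10 of 20 alternatives and lay above 0 in 3, and POLR3D passed as lower in 11 of 20.

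Read across the enzymes by position, the counterparts did not all move alike. The largest subunits changed by -0.40 (POLR1A), -0.16 (POLR2A) and -0.42 (POLR3A) in MOLM13 and by -0.60, 0.03 and -0.62 in MV411, as log2 fold changes in the same order of genes. For the second-largest subunits the values were -0.30 (POLR1B), -0.45 (POLR2B) and -0.88 (POLR3B) in MOLM13 and -0.72, -0.35 and -0.69 in MV411. The small subunits next to the active site that aid RNA cleavage gave -0.07 (POLR1H), -0.81 (POLR2I) and -0.90 (POLR3K) in MOLM13 and 0.11, -0.99 and -1.27 in MV411. Differences between genes were not tested.

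The size of the treatment effect differed between the lines for 13 members, by the test of the difference itself (the MV411 effect minus the MOLM13 effect). This difference was lower than 0 for 9 members and higher for 4, where 11.8% of all genes were lower and 8.85% higher, and 21.1% and 15.3% of those within the members' range of levels. The members' share of calls lies near that of genes at similar levels. The shift was -0.41 ± 0.05 for POLR1B (adjusted p = 8.51e-05), -0.31 ± 0.07 for POLR3E (adjusted p = 0.0102) and -0.34 ± 0.09 for POLR1C (adjusted p = 0.0127). On the other side it was 0.54 ± 0.06 for POLR1D (adjusted p = 3.64e-05), whose rise was larger in MV411. These 4 calls held under every alternative tried. For POLR3C the effect was -0.06 in MV411 and -0.28 in MOLM13 (difference 0.22 ± 0.06, adjusted p = 0.0201), and for POLR2A it was 0.03 in MV411 and -0.16 in MOLM13 (difference 0.18 ± 0.05, adjusted p = 0.0226). Those of POLR3C and POLR2A were lost in 10 and 11 of 19 alternatives, including most that leave out 1 library. POLR2J2 (1.19 ± 0.36, adjusted p = 0.0341) lost its call in 13 of 19 alternatives, and POLR3G (-0.71 ± 0.24, adjusted p = 0.0496) in 10 of 19.

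**Figure D3:**
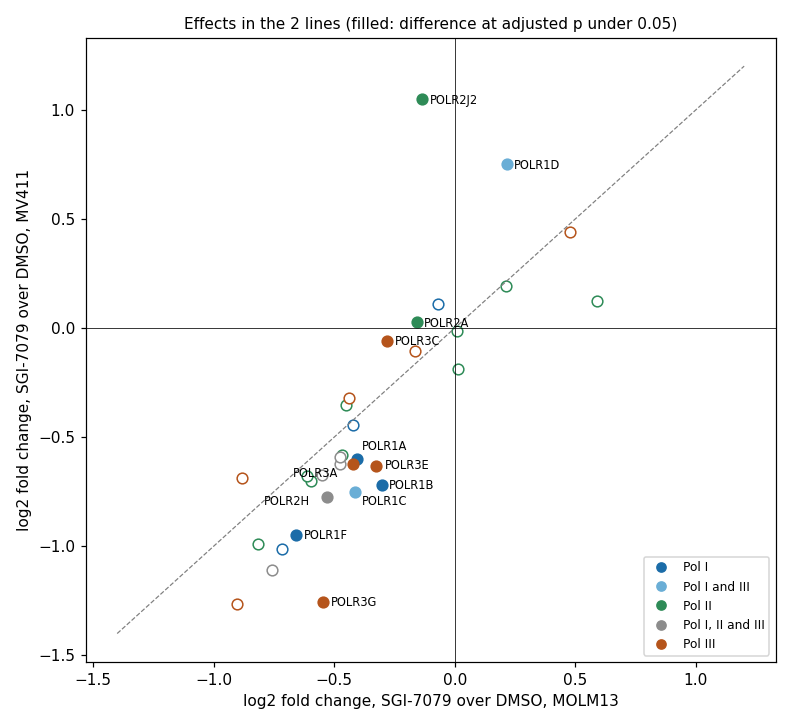
Log2 fold change, SGI-7079 over DMSO, of 33 members in MV411 (vertical) against MOLM13 (horizontal), coloured by enzyme, with the dashed line marking equal effects. Filled and named points passed the test of the difference. POLR1D and POLR2J2 lie above the line, and POLR3G below it.

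In untreated cells, 22 members were lower and 3 higher in MV411 DMSO than in MOLM13 DMSO, with a median log2 fold change of -0.31 against 0.03 for all genes. Of all genes tested, 26.5% were lower and 27.7% higher, and 38% and 34.3% within the members' range of levels. Every MV411 library was below every MOLM13 library for 23 members and above for 3, against 29.8% and 31.2% of all genes and 40.2% and 36.4% within that range. This comparison shares its DMSO libraries with the treatment comparisons above. Of the 10 Pol III subunits, 9 were lower in MV411. POLR1H had the largest gap, at 13.0, 12.7 and 12.9 CPM in MV411 against 38.0, 31.9 and 31.2 CPM in MOLM13 (-1.39 ± 0.08, adjusted p = 8.25e-09). POLR1HASP overlaps 24.5% of the POLR1H exons on the opposite strand. POLR3B changed by -1.13 ± 0.06 (adjusted p = 2.17e-09), POLR1F by -1.03 ± 0.06 (adjusted p = 2.29e-09) and POLR3C by -0.75 ± 0.04 (adjusted p = 4.54e-09). POLR3G was also lower, by 1.35 ± 0.17 on the log2 scale (adjusted p = 9.9e-06). POLR2E (0.48 ± 0.04, adjusted p = 9.54e-08) and POLR2G (0.55 ± 0.06, adjusted p = 2.42e-06) were among those higher in MV411. POLR1A (-0.02 ± 0.04) and POLR2A (0.02 ± 0.04) did not pass the test.

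**Figure D4:**
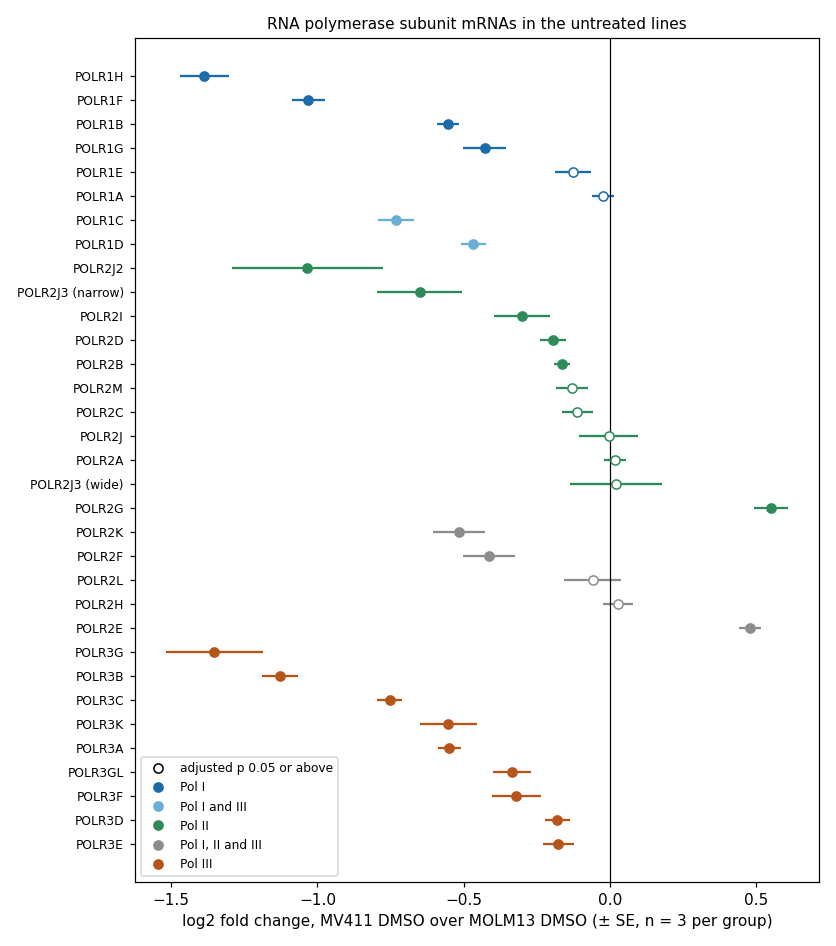
Log2 fold change of 33 members, MV411 DMSO over MOLM13 DMSO, with its standard error (n = 3 per group), coloured by enzyme. Open symbols mark an adjusted p of 0.05 or above. POLR1H and POLR3G lie furthest left, and POLR2E and POLR2G are filled points right of 0.

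Levels of different genes can be set side by side only per length, as the authors' FPKM. In MOLM13, POLR2A had the highest mean, at 40.2 ± 0.8 FPKM with SGI-7079 and 42.2 ± 0.1 FPKM with DMSO (SD, n = 3 each). In MV411, POLR2A led with SGI-7079 at 49.8 ± 1.5 FPKM, and had 45.3 ± 1.9 FPKM with DMSO, where POLR2E was higher at 52.4 ± 2.7 FPKM. POLR2A, POLR2B and POLR2E held the first 3 places in every group. The lowest FPKM belonged to POLR3F in MOLM13 with SGI-7079 (1.83 ± 0.09), to POLR3G in MV411 with SGI-7079 (0.996 ± 0.083), and to the narrow POLR2J3 model with DMSO (1.73 ± 0.22 in MOLM13 and 1.17 ± 0.11 in MV411). The median over the 10 Pol III subunits was 6.78 FPKM with SGI-7079 and 8.42 FPKM with DMSO in MOLM13, and 4.84 FPKM with SGI-7079 and 7.00 FPKM with DMSO in MV411. Lengths implied by these FPKM are 1.08 times the union of each gene's annotated exons, if the summed counts were the library total. A larger library total would lower that factor alike for all genes. Scaling to a union of exons understates genes with long, rarely used exons.

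Factors that work with the enzymes were counted from lists in the same fits. MAF1, CRCP and POLRMT were named after their values were seen, and each of the others was among the 2 genes of smallest adjusted p in its list and direction in at least 1 line. The counts below stand beside the 23.6% of all genes that fell and 23.2% that rose in MOLM13, the 24.3% and 27.2% in MV411, and the 43.6% that fell in each line within the members' range of levels. Of 9 genes listed for Pol I initiation, which include a termination factor, TCOF1 and NOLC1, 7 fell and 0 rose in each line. TCOF1 and NOLC1, nucleolar phosphoproteins that act with Pol I, had the smallest adjusted p in both. TCOF1 changed by -0.73 ± 0.03 in MOLM13 and -1.47 ± 0.03 in MV411, and NOLC1 by -0.48 ± 0.03 in MOLM13 and -0.95 ± 0.03 in MV411. The list for Pol III initiation holds 17 genes, among them the repressor MAF1 and the subunit CRCP. Of these 17, 11 fell and 0 rose in MOLM13, and 9 fell and 2 rose in MV411. GTF3A, which binds 5S ribosomal RNA genes, fell by 0.50 ± 0.03 and GTF3C4 by 0.63 ± 0.05 in MOLM13, and GTF3C5 fell by 0.68 ± 0.05 and GTF3C2 by 0.48 ± 0.04 in MV411, the last 3 being parts of the factor TFIIIC. The genes that rose in MV411 were SNAPC3 (0.36 ± 0.06) and SNAPC2 (0.33 ± 0.07), parts of the complex that recruits Pol II and Pol III to small nuclear RNA genes. MAF1, a repressor of Pol III, changed by -0.18 ± 0.03 in MOLM13 and -0.32 ± 0.03 in MV411, and CRCP, a Pol III subunit outside the naming rule, by -0.27 ± 0.08 and -0.30 ± 0.08.

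Of 30 Pol II general factors, 21 fell and 5 rose in MOLM13, and 18 fell and 4 rose in MV411. TAF5, a core subunit of the promoter-binding factor TFIID, fell by 0.90 ± 0.08 in MOLM13 and by 1.25 ± 0.08 in MV411, and TAF1, its largest subunit, rose by 0.14 ± 0.03 in MOLM13 and by 0.47 ± 0.03 in MV411. Of 22 pausing and elongation genes, 16 fell and 4 rose in MOLM13, and 15 fell and 4 rose in MV411. PAF1, of the elongation complex that bears its name, fell by 0.51 ± 0.04 in MOLM13 and by 0.71 ± 0.04 in MV411. CDK9, the kinase that releases paused Pol II, rose by 0.20 ± 0.05 in MOLM13 and by 0.19 ± 0.05 in MV411. Of 10 genes for polymerase assembly and import, 6 fell and 1 rose in each line. RPAP2, a phosphatase of the Pol II tail that also works in nuclear import of Pol II, was the one that rose, by 0.48 ± 0.05 in MOLM13 and by 0.59 ± 0.05 in MV411, and the GTPase GPN3 fell by 0.53 ± 0.06 in MOLM13 and by 0.93 ± 0.06 in MV411. Of 9 mitochondrial transcription genes, 5 fell and 2 rose in MOLM13, and 6 fell and 2 rose in MV411. TFAM, which packages mitochondrial DNA and activates its promoters, fell by 0.64 ± 0.06 in MOLM13 and by 0.97 ± 0.06 in MV411. POLRMT, the mitochondrial RNA polymerase, measured -0.09 ± 0.04 (adjusted p = 0.0742) in MOLM13 and fell by 0.38 ± 0.04 in MV411. List medians lay between -0.44 and -0.22 in MOLM13 and between -0.40 and -0.23 in MV411, against 0.05 and 0.11 for all genes.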

How the data were processed

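Per the labels' protocols, poly(A) RNA of 12 libraries was copied into strand-marked (dUTP) libraries and sequenced in pairs on an Illumina NovaSeq instrument. The submitters' processing notes name cutadapt 1.9, HISAT2 2.2.1, StringTie 2.1.6, DESeq2, edgeR and build hg38, and the series' design text names featureCounts. The deposited table gives raw counts per gene and the authors' FPKM for each library, per the file headers. The sources used here do not say whether counting used the strand. GENCODE 44 shows that 25 members share exon bases with another gene, 8 with one on the same strand and 21 with one on the opposite strand, so their values are uncertain.

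Counts were tested with edgeR 4.0.16 (quasi-likelihood, TMM scaling, minimum count 10) in R 4.3.3, with 1 mean per group over 12 libraries, and p-values were adjusted by Benjamini-Hochberg over 21438 genes. SE is the absolute log2 fold change over the root of F. The test was first run on simulated data for the MOLM13 comparison only. Few genes were changed there and all had the same spread, so that run does not bear on the choice of scaling. Ratios used FPKM. Alternatives were other scaling, no filter, DESeq2 1.42.0, limma 3.58.1 on log2(FPKM + 1) and log2(FPKM + 0.1), a replicate block, each line alone and leaving out each library. Members and lists were chosen with earlier results of these data known. Members are described by class, and 1 member, counted throughout, is not reported here by name or drawn in the figures. Full statistics go to the largest subunits, the POLR3G pair and, in each class and line, the members of smallest adjusted p in each direction. Replicates differed by more than sampling noise, so no pair was treated as 1 library. No value column was without a sample (0).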

Additional observations from a re-analysis of the deposited data

Results flagged for a closer look

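The effect of SGI-7079 differed between the lines, by the test of the MV411 effect minus the MOLM13 effect, for 13 subunits, 12 of which are given here. Among all genes tested 11.8% had a lower and 8.85% a higher difference, and 21.1% and 15.3% did within the members' range of levels, so that the members' share of calls lies near that of genes at similar levels. The difference was -0.71 for POLR3G, -0.41 for POLR1B, -0.34 for POLR1C, -0.31 for POLR3E, -0.29 for POLR1F, -0.24 for POLR2H, -0.20 for POLR3A and -0.20 for POLR1A on the log2 scale. It was 0.18 for POLR2A, 0.22 for POLR3C, 0.54 for POLR1D and 1.19 for POLR2J2. Those of POLR1B, POLR1C, POLR1D and POLR3E passed under all 19 alternatives. POLR1F, POLR2H and POLR3A each lost the call in 3 alternatives and POLR1A in 2. The call was lost for POLR3G and POLR3C in 10 alternatives each, for POLR2A in 11 and for POLR2J2 in 13.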

How the results depend on the processing

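Upper-quartile scaling moved the median of all genes by 0.10 in MOLM13 and 0.10 in MV411, and the share of rises among all calls to 60.2%, against 49.6% with TMM, in MOLM13 and to 60.3%, against 52.8% with TMM, in MV411. Relative to the median of all genes, the members' median was -0.48 in MOLM13 and -0.73 in MV411 and ranged over the alternatives between -0.51 and -0.31 and between -0.77 and -0.50. Limma on log2(FPKM + 1) and on log2(FPKM + 0.1) each gave 5 rises among members in MV411, and limma on log2(FPKM + 1) gave 5 members higher in untreated MV411. Without the filter, 1 member had an effect higher in MV411 than in MOLM13. For that difference over all genes, no filter gave 1261 and limma on log2(FPKM + 1) gave 3172 higher. With each library left out in turn, 1 to 3 members had a higher and 6 to 14 a lower difference, the 14 without MOLM13 DMSO replicate 1, and 1200 to 1789 genes had a higher one. Leaving out a library also moved the median of all genes. For the difference that median ran from -0.103 to -0.006, against -0.014 in the main fit. Without MOLM13 DMSO replicate 1, the median of the MV411 effect was 0.05, against 0.11 in the main fit, though no MV411 library was removed. The part of these shifts in the members' calls was not tested. In the same fits 25 to 26 members fell in MOLM13, 23 to 26 in MV411, and the POLR3G to POLR3GL difference ranged from -1.10 to -0.97 in MOLM13 and from -1.89 to -1.38 in MV411.

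Signs turned only for values near 0 that had not passed the test. POLR1H in MOLM13 was 0.032 with upper-quartile scaling, 0.018 with limma on log2(FPKM + 1) and 0.021 with limma on log2(FPKM + 0.1). With the same settings in order, POLR2M in MV411 was 0.081, 0.083 and 0.092, and POLR3C in MV411 was 0.038, 0.041 and 0.048. POLR3D in MV411 was 0.0018 and 0.0019 with limma. POLR2A in MV411 was -0.026 with no filter and -0.039 with each line alone. With libraries left out, the ranges were -0.12 to 0.029 for POLR1H in MOLM13, -0.073 to 0.067 for POLR2A in MV411, -0.021 to 0.071 for POLR2G and -0.014 to 0.0496 for POLR2M in MOLM13, and -0.018 to 0.22 for the wide POLR2J3 model in MV411. The causes were not tested.

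Deviations of same-numbered replicates correlated at -0.19 to 0.176, and those of other pairs in a line at -0.154 to 0.194. No pairing by number was seen, but deviations from the means of 3 libraries cannot exclude it. With the replicate block, 26 members fell and 3 rose in MOLM13 and 24 fell and 3 rose in MV411, and over all genes 4897 fell and 4642 rose in MOLM13 and 5074 fell and 5521 rose in MV411. The block ended, among others, the difference calls of POLR1A, POLR1F, POLR2H and POLR2J2. The least certain effects were those of POLR2J2 and POLR3G, with standard errors of 0.26 and 0.17 in MV411.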
